A study of Solanum lycopersicum with 18 samples.

Results

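The trimethylation of histone H3 at lysine 27 (H3K27me3) was compared between *crel* mutant and wild-type tomato by ChIP-seq, and the sites described here are those that carried a peak in both *crel* replicates and no peak at all in wild type. There were 2 peak lists from *crel* plants and 2 from wild type, M82, the background of the mutant. By the study's methods the *crel* plants of the ChIP-seq carried *crel-2*, an allele from a fast neutron population, whereas the labels name only the gene. Shoot apices with the expanding leaves were collected from 28-day-old plants of both genotypes, so each list reflects a mixture of meristem and young leaf cells. A *crel* region was defined as the interval shared by a peak of *crel* replicate 1 and a peak of *crel* replicate 2, with at least 1 bp in common. Of 8379 such regions, 8019 lay on the 12 assembled chromosomes. The gained sites were the 1270 of these that shared no base with any peak of wild-type replicate 1 or wild-type replicate 2, or 15.8% (95% Wilson interval 15.1 to 16.7%). Peaks of *crel* replicate 2 taken alone, without replicate 1, gave 1930 sites, and requiring the *crel* peaks to cover at least 50% of each other gave 730. The sites were chosen by the presence of peaks in the *crel* lists and their absence in the wild-type lists, so this share is a description and not evidence of a gain, and no test between the genotypes was made on 2 replicates each. On sequence not placed on a chromosome, 66 of 360 *crel* regions (18.3%) also lacked a wild-type peak, and they are not part of the 1270 sites.

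H3K27me3 is the mark written by Polycomb Repressive Complex 2 (PRC2), and in plants it typically covers whole genes that are kept silent in a given tissue or developmental stage. CREL belongs to the VERNALIZATION INSENSITIVE 3-LIKE (VIL) proteins, which carry a PHD finger and whose Arabidopsis members VIN3 and VRN5 act together with PRC2 at silenced targets such as the flowering repressor *FLC*.

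The *crel* lists held 8734 peaks in replicate 1 and 8914 in replicate 2 on the 12 chromosomes, against 17718 and 16098 peaks in the wild-type replicates. The *crel* peaks covered 41.0 and 43.3 Mb, and the wild-type peaks 58.3 and 55.8 Mb. Each list gives the start and end of a peak and nothing more, so the number of reads behind a peak is not known and the lack of a peak does not show that the mark was absent. All positions below are those of the deposited lists, on sequences named as in SL2.40. Each start is printed 1 base higher than in the lists, so that the first and last base of an interval both belong to it. No gene annotation of that build was used, so whether a site lies in an exon, an intron or between genes was not analysed here. Intervals given with shares cover counting error only, and neighbouring sites are not independent of each other.

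The comparison classes were as follows. Of the remaining *crel* regions, 528 met a wild-type peak that was not reproduced. For 295 of them this peak was in wild-type replicate 1 alone, for 194 in replicate 2 alone, and at 39 both lists had a peak without a shared interval there. The other 6221 *crel* regions overlapped a reproducible wild-type region. In the opposite direction, 7908 of 15216 wild-type regions (52%) shared no base with a peak of either *crel* replicate.

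The gained sites were narrow. Their median width was 638 bp (quartiles 476 and 1209.5 bp, range 1 to 9648 bp), against 1154 bp for *crel* regions at unreproduced wild-type peaks, 4076 bp for *crel* regions on reproducible wild-type regions and 1274 bp for wild-type regions without any *crel* peak. The 1270 sites together covered 1.25 Mb, or 3.23% of the bases in *crel* regions. Of these sites 375 (29.5%) were under 500 bp, 505 (39.8%) were 500 to under 1000 bp, 251 (19.8%) were 1000 to under 2000 bp and 139 (10.9%) were 2000 bp or wider. Among *crel* regions on reproducible wild-type regions, 72.4% were 2000 bp or wider. Seen from the *crel* side, the narrower a region was, the more often it lacked a wild-type peak. This was so for 50.5% of the 743 *crel* regions under 500 bp, 37.8% of the 1336 regions of 500 to under 1000 bp, 22.1% of the 1134 regions of 1000 to under 2000 bp and 2.89% of the 4806 wider ones. A wider region has more bases that can meet a wild-type peak. This trend and the narrow widths of the gained sites therefore follow in part from the rule. The smallest peak that was called is 501 bp in the lists apart from a single peak of 493 bp in *crel* replicate 2, and 183 gained sites (14.4%) had exactly 501 bp. Only 53 gained sites reached 3000 bp, and 9 reached 5000 bp.

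The 5 widest sites were peaks of several kb in both *crel* replicates. The widest lay at chr1:4079812-4089459 and measured 9648 bp, from a peak of 9773 bp in *crel* replicate 1 and one of 9648 bp in replicate 2. The nearest wild-type peak was 5477 bp away. The next, at chr2:33482760-33492360, spanned 9601 bp where peaks of 12294 bp in *crel* replicate 1 and 13514 bp in replicate 2 overlapped, 9289 bp from a wild-type peak. At both sites neither *crel* peak touched a wild-type peak anywhere along its length, and the widths in the 2 *crel* replicates were close to each other. At chr12:48060348-48068738 the *crel* peaks measured 8937 and 8391 bp, and their shared interval was 8681 bp from the nearest wild-type peak. At chr2:20010916-20018615 the *crel* peaks measured 7700 and 8569 bp, with 19258 bp from their shared interval to the nearest wild-type peak. The site at chr12:39215417-39222245, from *crel* peaks of 6849 and 7244 bp, was closest to a wild-type peak among the 5, at 1117 bp. These broad sites were at the far end of the 1270, of which 390 (30.7%) reached 1000 bp.

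The peaks behind the gained sites matched less well between the *crel* replicates than peaks behind other *crel* regions. Their median width was 831 bp in *crel* replicate 1 and 1385.5 bp in replicate 2, against 4442 and 5007 bp for *crel* regions on reproducible wild-type regions. The 2 peaks of a gained site had a median Jaccard index of 0.548, meaning the bases they shared as a part of all bases in either, against 0.705 at unreproduced wild-type peaks and 0.863 on reproducible wild-type regions. Within width classes the contrast was smaller or turned round below 2000 bp. The index was 0.444 for gained sites under 500 bp and 0.359 for *crel* regions of that width on reproducible wild-type regions, and at 1000 to under 2000 bp the values were 0.672 and 0.658. At 2000 bp and over, gained sites had an index of 0.801 and *crel* regions on reproducible wild-type regions 0.910. The peak of replicate 1 was 501 bp wide at 381 gained sites (30%), that of replicate 2 at 274 (21.6%), and both were at 159. At 401 sites (31.6%) the replicate 1 peak lay wholly inside that of replicate 2, and at 175 (13.8%) the reverse held. Some sites were pieces of one peak: 147 shared a *crel* peak with another gained site, and joining these left 1193 separate sites.

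The *crel* lists were also compared with each other, peak by peak. Of the 8734 peaks of *crel* replicate 1, 1745 (20%) shared no base with a wild-type peak, and of the 8914 of replicate 2, 1930 (21.7%). Of these 1745 peaks of replicate 1, 1183 (67.8%, 65.6 to 69.9%) were met by a peak of replicate 2, against 94.0% of the replicate 1 peaks that touched a wild-type peak. Of the 1930 peaks of replicate 2, 1047 (54.2%, 52.0 to 56.5%) were met in replicate 1, against 90.5% of those that touched a wild-type peak. Many peaks without wild-type counterpart were thus seen in 1 *crel* library and not in the other. Within width classes the difference from peaks with a counterpart was smaller. Among peaks up to 501 bp, 46.6% of the replicate 1 peaks without a wild-type peak were found in replicate 2, against 59.1% of those with one. At 1000 to under 2000 bp the shares were 93.6 and 96.2%. All 184 peaks of replicate 1 that were 2000 bp or wider and free of wild-type peaks were found in replicate 2, and 96.3% of the corresponding 267 peaks of replicate 2 were found in replicate 1.

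**Figure D1:**
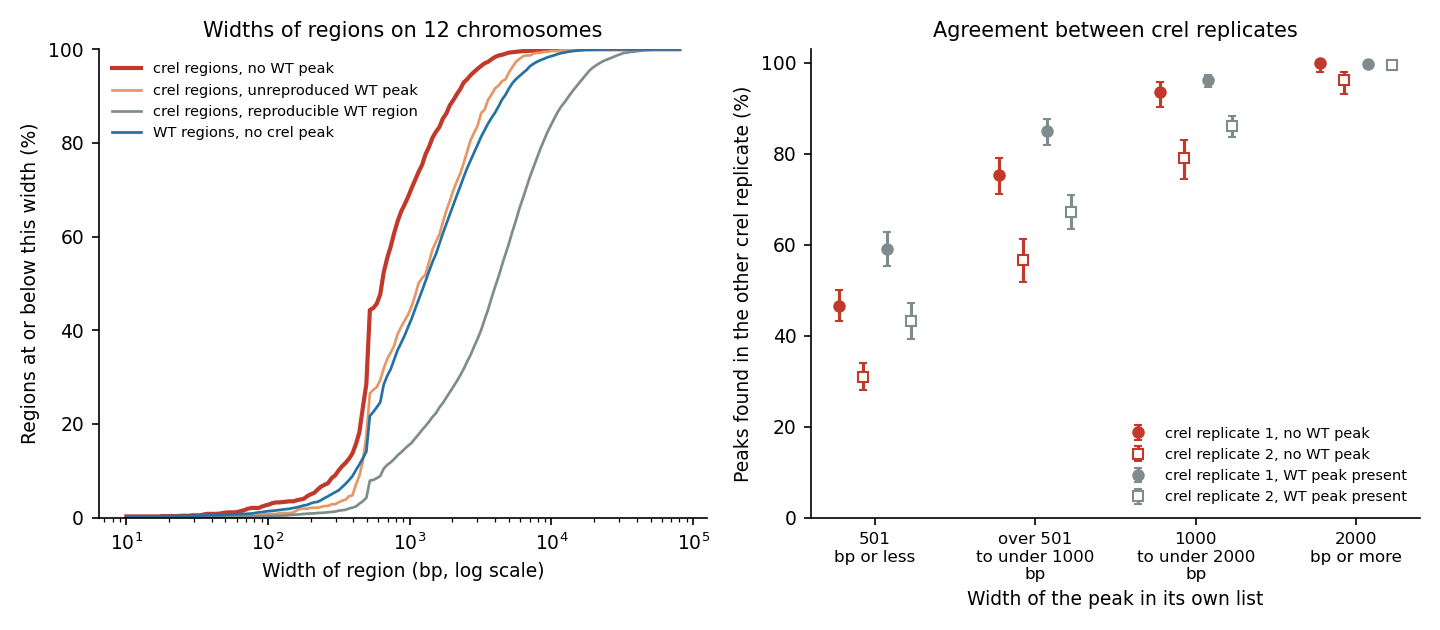
Left, the share of regions at or below each width (log scale, bp) for gained sites, the 2 other classes of *crel* regions and wild-type regions without any *crel* peak. Right, the share of peaks of each *crel* replicate that met a peak of the other, by peak width and presence of a wild-type peak, with 95% Wilson intervals. The curve of gained sites, with a median of 638 bp, lies left of the others, and agreement between replicates increases with width in all 4 series.

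The rule has a sharp edge, and a few sites lay close to it. The gained sites nearest to a wild-type peak were at chr9:14555648-14556189 (542 bp wide, 13 bp away), chr6:37790957-37791047 (91 bp wide, 15 bp away) and chr1:56429939-56430709 (771 bp wide, 28 bp away). At each of these 3 sites a *crel* peak itself ran into a wild-type peak and only the part shared by the replicates stopped short of it. Just outside the rule, the *crel* region at chr11:11399206-11399706 shared 2 bases with a peak of wild-type replicate 1, and that at chr2:38611926-38612426 shared 3 bases with a peak of wild-type replicate 2. One more, at chr7:48590414-48590420, was a 7 bp overlap of the *crel* peaks that lay in peaks of both wild-type lists. In all, 7 gained sites were within 100 bp of a wild-type peak, and 38 excluded *crel* regions shared up to 100 bases with one. A *crel* peak that touched a wild-type peak elsewhere along its length stood behind 232 gained sites (18.3%), in replicate 1 at 63 sites and in replicate 2 at 177. At the other 1038 sites both *crel* peaks were clear of wild-type peaks over their whole length.

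Most gained sites lay close to a wild-type H3K27me3 peak. The median distance to the nearest wild-type peak was 5359 bp (quartiles 1798 and 17884 bp), with 5845 bp to the nearest peak of wild-type replicate 1 and 6498 bp to that of replicate 2. Of the 1270 sites, 163 (12.8%) were within 1 kb of a wild-type peak, 612 (48.2%) within 5 kb, 974 (76.7%) within 20 kb and 1193 (93.9%) within 100 kb. The median was 8144.5 bp for the 1038 sites whose *crel* peaks were clear of wild-type peaks, and 8298.5 bp for the 730 sites left where the *crel* peaks had to cover at least 50% of each other. Wild-type regions without any *crel* peak were farther from the peaks of the other genotype, with a median of 35210 bp to the nearest *crel* peak and 10.8% of them within 5 kb. The *crel* lists hold fewer peaks than the wild-type lists, so the distances in the 2 directions are not on equal terms. Within *crel*, the nearest *crel* region with a wild-type peak was a median of 6315 bp from a gained site. The nearest wild-type region without any *crel* peak was a median of 119141 bp away.

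The 77 sites beyond 100 kb from any wild-type peak included single narrow peaks in long stretches without a called wild-type peak. The farthest, at chr11:39345605-39346102, was a 498 bp overlap of 501 bp peaks in the 2 *crel* replicates, 1028205 bp from the nearest wild-type peak. The second, at chr1:17684721-17687266, was broader, with peaks of 2546 bp in *crel* replicate 1 and 3473 bp in replicate 2, and was 853075 bp away. The third, at chr1:44717401-44717872, was again an overlap of 501 bp peaks in both replicates, 738447 bp from the nearest wild-type peak. The median width by distance was 501 bp up to 1 kb, 634 bp over 1 to 5 kb, 701.5 bp over 5 to 20 kb, 687 bp over 20 to 100 kb and 608 bp beyond. The overlap of the 2 *crel* peaks was larger farther away, with median Jaccard indices of 0.245, 0.444, 0.623, 0.670 and 0.718 over the same 5 distance classes. Of the 163 sites within 1 kb, 100 had a *crel* peak that touched a wild-type peak, as had 127 of 449 at over 1 to 5 kb, whereas beyond 20 kb none did. Such a site is kept only if the peak of the other replicate stops short of that wild-type peak, which lowers the index. The trend of the index with distance thus follows in part from the rule.

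Relative to the sequence that was free of wild-type peaks, the sites were densest in stretches of intermediate length. This sequence comprised 18602 stretches and 696 Mb, which gives 1.82 sites per Mb, and 968 stretches (5.20%) held a gained site. Stretches of over 5 to 20 kb held 6.22 sites per Mb (335 sites), those of over 20 to 100 kb held 2.68 per Mb (521 sites), those of over 100 to 500 kb held 1.11 per Mb (291 sites) and those over 500 kb held 0.378 per Mb (65 sites). Stretches of over 1 to 5 kb held 4.82 per Mb (56 sites), and those of up to 1 kb held 1.03 per Mb (2 sites). Measured by the distance of the site's midpoint from a wild-type peak, density was 3.03 sites per Mb up to 1 kb, 5.84 per Mb at over 1 to 5 kb and 0.411 per Mb beyond 100 kb. A gained site had to fit between wild-type peaks without touching one. The lower densities in the shortest stretches and nearest to a peak thus follow in part from the rule. How much of the free sequence reads could be placed on was not measured.

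**Figure D2:**
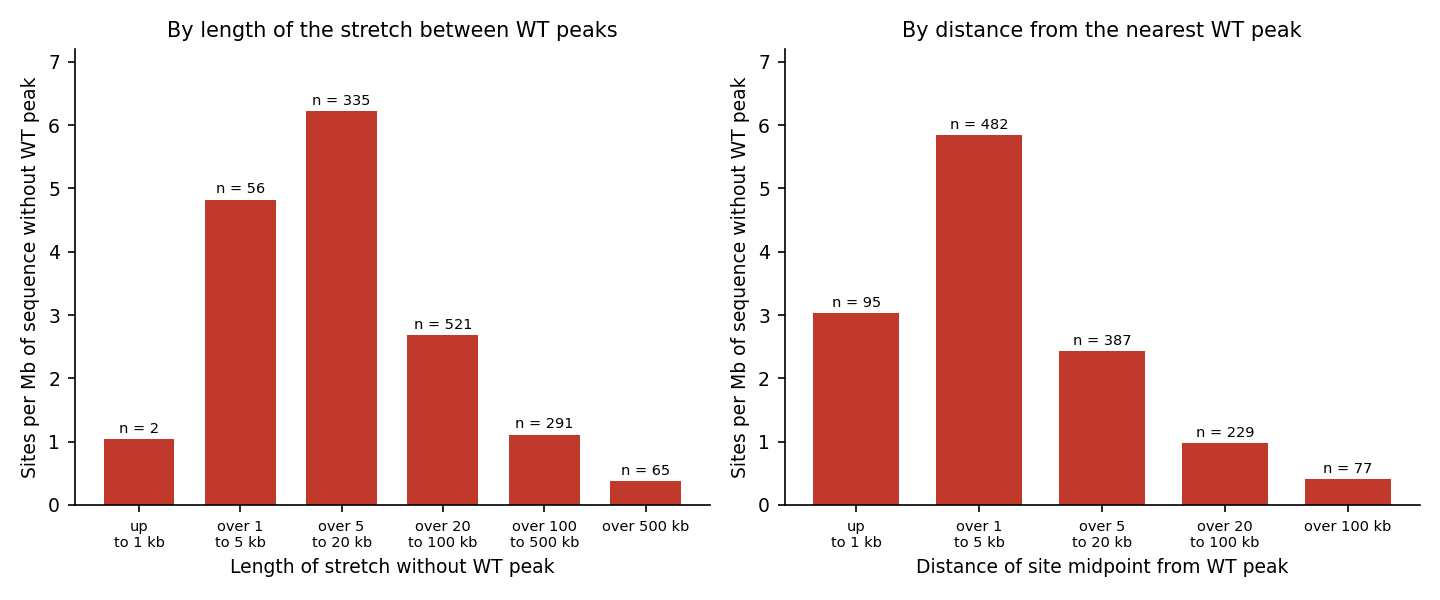
Gained sites per Mb of sequence without a wild-type peak, by the length of the stretch between neighbouring wild-type peaks (left) and by the distance of the site's midpoint from the nearest wild-type peak (right), with the number of sites above each bar. Density is highest at 6.22 sites per Mb in stretches of over 5 to 20 kb and at 5.84 per Mb at a distance of over 1 to 5 kb, and lowest at 0.378 and 0.411 per Mb at the far end of each axis.

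The wild-type peaks beside gained sites were mostly ones that *crel* also had. For 1090 of the 1270 sites (85.8%, 83.8 to 87.6%) the nearest wild-type peak met a peak of a *crel* replicate. For *crel* regions at unreproduced wild-type peaks the nearest other wild-type peak did so in 82.6%, and for *crel* regions on reproducible wild-type regions in 73.7% (72.6 to 74.8%). For wild-type regions without any *crel* peak this held for 1185 of 7908 (14.2 to 15.8%), and over all 18599 merged wild-type peaks 42.4% met a *crel* peak. At 232 of the gained sites a *crel* peak behind the site itself touched a wild-type peak, and all 232 are among the 1090. The outcome at these sites was thus largely set by that peak. The value for gained sites was 82.7% among the 1038 whose *crel* peaks stayed clear of wild-type peaks, and 82.1% among the 658 that were over 5 kb from one. On each of the 12 chromosomes the share was higher for gained sites than for *crel* regions on reproducible wild-type regions, with a range for gained sites of 73.5% on chromosome 11 to 92.0% on chromosome 3. Among the wild-type peaks within 100 kb, a median of 88.9% met a *crel* peak around gained sites, against 66.7% around *crel* regions on reproducible wild-type regions and 18.2% around wild-type regions without any *crel* peak. Both flanking wild-type peaks met a *crel* peak at 70.1% of gained sites and neither did at 6.16%. The shares by chromosome, within 100 kb and for both flanks include the 232 sites. The presence or absence of *crel* peaks also defined the classes compared, so these shares are a description only. This comparison was chosen after the data had been seen.

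**Figure D3:**
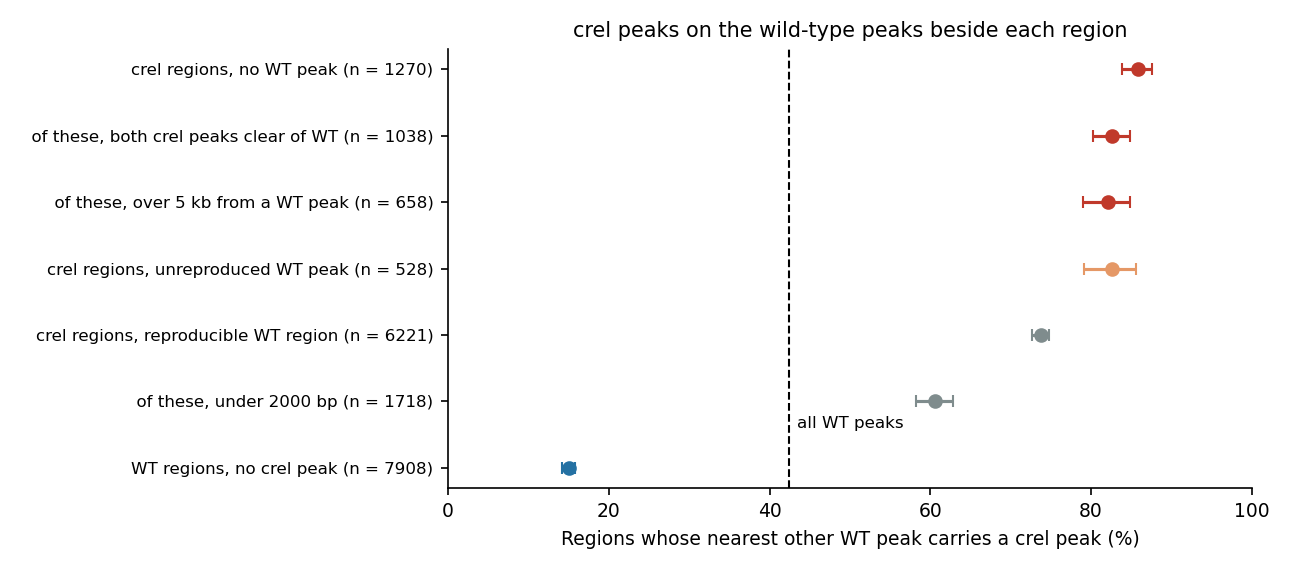
Share of regions whose nearest other wild-type peak met a peak of a *crel* replicate, with 95% Wilson intervals, for gained sites and 2 subsets of them, for the other classes of *crel* regions and for wild-type regions without any *crel* peak. The dashed line marks the 42.4% of all merged wild-type peaks, and gained sites are at 85.8%.

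At a distance of 50 kb, about as many gained sites had another nearby as stood alone. The median distance from a gained site to the nearest other was 45876 bp, and 656 sites (51.7%, 48.9 to 54.4%) lay within 50 kb of another. Chained at that distance they formed 221 clusters, of which 136 were pairs and 28 held 5 or more sites, 197 in all. With a link of 10 kb 349 sites (27.5%) were in clusters, and with a link of 200 kb 933 (73.5%). The share within 50 kb fell to 31.9% where the *crel* peaks had to cover at least 50% of each other, a setting that left 730 sites. Of the 28 clusters with 5 or more sites, 8 were on chromosome 2, 5 on chromosome 12 and 4 on chromosome 1, and none on chromosomes 8 and 11.

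The cluster with the most sites was at chr2:31529426-31734090, where 18 of 23 *crel* regions over 204.7 kb lacked a wild-type peak. The *crel* lists had 29 and 25 peaks there, against 5 and 3 peaks in the wild-type lists, and all 6 merged wild-type peaks also carried a *crel* peak. Its sites measured 48 to 5903 bp, with gaps of 560 to 43071 bp. Its widest site, at chr2:31630912-31636814, was a peak of 5903 bp in *crel* replicate 2 that lay inside a 9191 bp peak of replicate 1. The same replicate 1 peak met a second replicate 2 peak of 2054 bp and so gave another gained site. Farther along, one 7023 bp peak of replicate 1 met 3 separate replicate 2 peaks of 649, 823 and 501 bp. In this cluster replicate 1 therefore had broad peaks where replicate 2 had several small ones, and the count of 18 includes pieces of the same peak.

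The second cluster, at chr1:65411574-65597069, had 12 gained sites among 17 *crel* regions, with 21 and 18 peaks in the *crel* lists and 6 and 5 peaks in the wild-type lists. All 6 merged wild-type peaks in it carried a *crel* peak. The third, at chr2:17154672-17332043, had 11 gained sites among 13 *crel* regions, with 17 and 11 *crel* peaks against 2 peaks in each wild-type list. Both merged wild-type peaks in it carried a *crel* peak. That the *crel* lists have more peaks than the wild-type lists in these clusters follows from how the sites were chosen.

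Of the 968 stretches between wild-type peaks that held a gained site, 776 held a single one, and 192 held at least 2, or 494 sites in all (38.9%). The stretch at chr2:31662603-31739833, inside the first cluster, held 9 gained sites within 77.2 kb, with 15 and 13 peaks in the *crel* lists and none in wild type. That at chr2:17098873-17310705 held 9 within 211.8 kb, with 15 and 9 *crel* peaks. At chr5:59228282-59432346 a stretch of 204.1 kb held 8 gained sites and no other *crel* region. These came from 8 peaks of *crel* replicate 1 and 5 of replicate 2, so some were pieces of the same replicate 2 peak, and the stretch held 6 replicate 2 peaks in all. The sites of that stretch were 114 to 1665 bp wide.

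Along the chromosomes gained sites were more often central than wild-type regions without any *crel* peak. Positions were taken relative to the end of the last peak on the chromosome in any list. In the central 50% lay 603 gained sites (47.5%, 44.7 to 50.2%), against 48.1% (43.9 to 52.4%) of *crel* regions at unreproduced wild-type peaks, 38.6% (37.4 to 39.8%) of those on reproducible wild-type regions and 18.7% (17.9 to 19.6%) of wild-type regions without any *crel* peak. The share of gained sites was thus close to that at unreproduced wild-type peaks and higher than in the other classes. These intervals cover counting error only and treat neighbouring sites as independent, so they do not test a difference between classes. An even spread along the chromosomes would place 50% there, so the gained sites themselves were not concentrated in the centre. Within each of the 4 width classes the share was also higher for gained sites than for *crel* regions on reproducible wild-type regions, 44.5 against 28.8% under 500 bp and 56.1 against 40.0% at 2000 bp and over. By chromosome, gained sites were more central than *crel* regions on reproducible wild-type regions on 10 of 12, the exceptions being chromosomes 4 and 9, and more central than wild-type regions without any *crel* peak on all 12. Sites farther from wild-type peaks were more often central, from 37.4% of those within 1 kb to 61.0% of those beyond 100 kb. Wild-type peaks left more free sequence in the middle of the chromosomes than at the ends, so distance and place are tied to each other.

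Divided into 10 equal parts from start to end, the chromosomes held the most gained sites in the 8th part (237 sites, 18.7%) and the 7th (180 sites, 14.2%), and the fewest in the 5th (78 sites, 6.14%) and the 10th (79 sites, 6.22%). The 10th part held 30.6% of the wild-type regions without any *crel* peak. Of all *crel* regions in a part, the gained sites made up between 8.66% in the 10th and 20.5% in the 7th. Per Mb of sequence free of wild-type peaks there were 3.54 gained sites in the 8th part and 1.99 in the 1st. In the 5th and 6th parts there were 1.06 and 1.18.

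**Figure D4:**
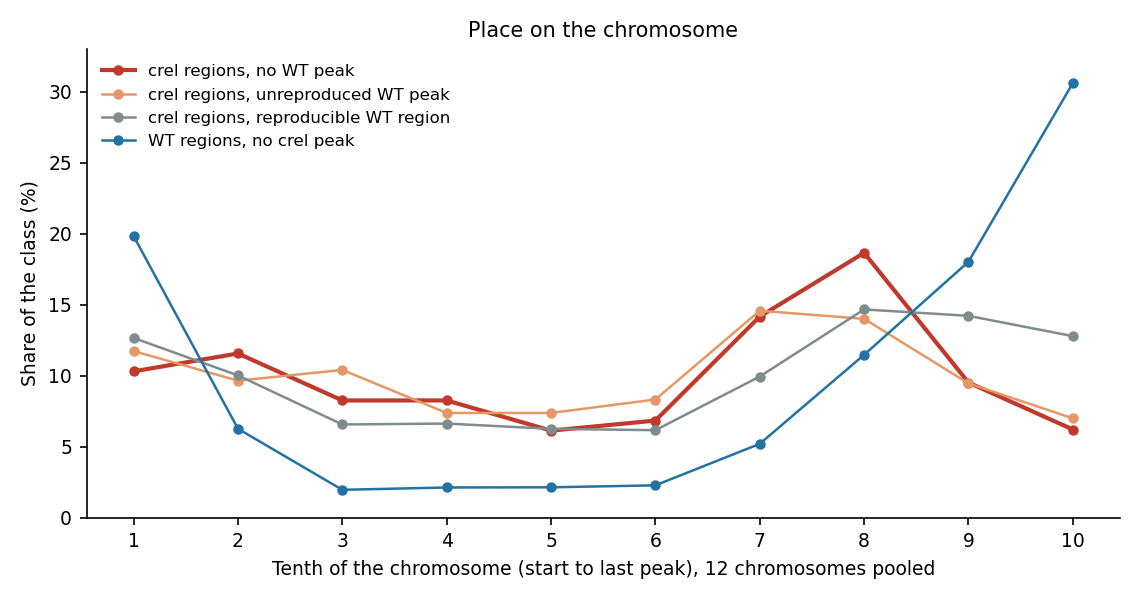
Share of each class of regions in 10 equal parts of the chromosomes from the start to the last peak, with 12 chromosomes pooled. Gained sites peak in the 8th part at 18.7%, whereas wild-type regions without any *crel* peak concentrate in the outermost parts, with 30.6% in the 10th.

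Chromosome 2 had the most gained sites for its length, 128 or 2.56 per Mb, and chromosome 11 the fewest, 49 or 0.919 per Mb. Chromosome 1 held the largest number, 223 sites at 2.47 per Mb, and the other chromosomes had between 1.16 and 1.83 per Mb. As a share of the *crel* regions on the same chromosome, gained sites were 19.8% (16.9 to 23.1%) on chromosome 2 and 9.86% (7.54 to 12.8%) on chromosome 11. The arrangement within chromosomes also varied. On chromosome 2, 88.3% of the gained sites were in the central 50% and 75% were within 50 kb of another, against 38.8% and 20.4% on chromosome 11. On chromosomes 6 and 12 the central shares were 72.8 and 72.3%, and on chromosome 9 the share was 19.4%. Without chromosome 2 the pooled central share of gained sites was 42.9%, and that of *crel* regions on reproducible wild-type regions 36.1%.

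**Figure D5:**
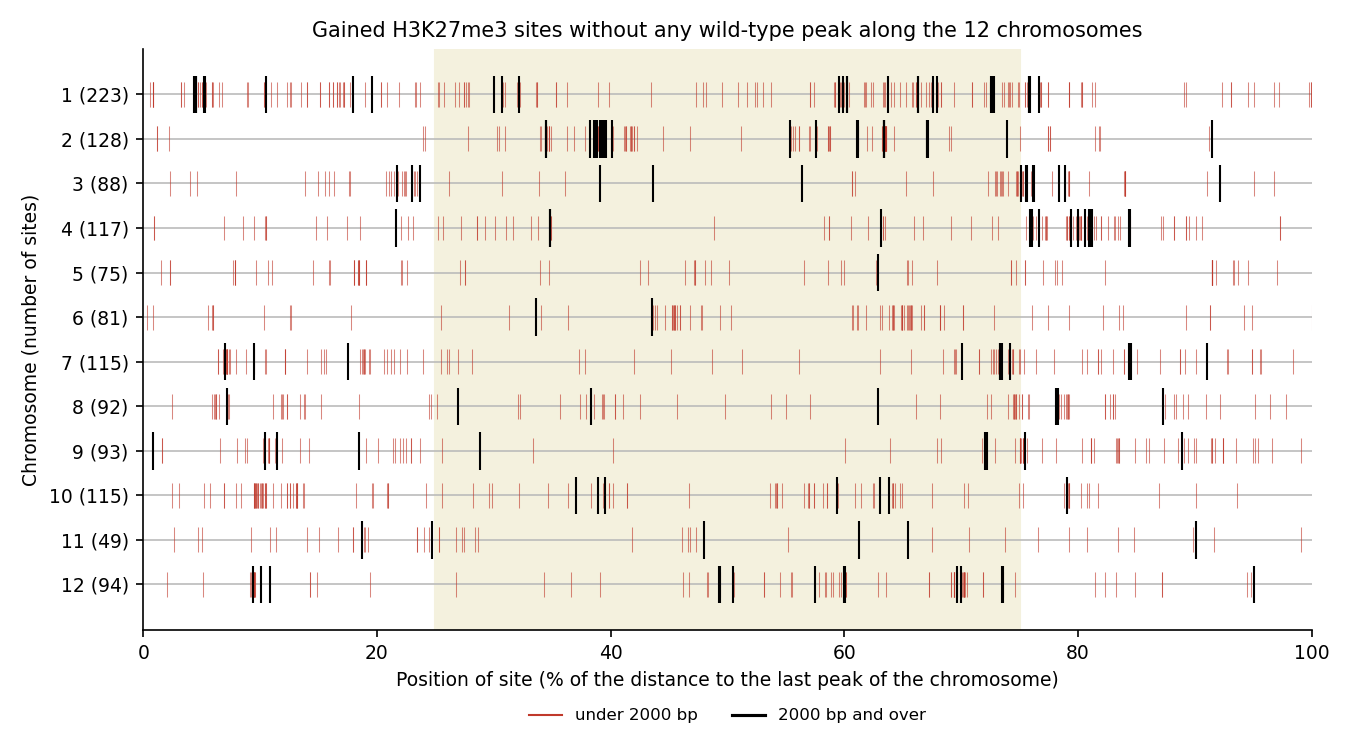
Position of each of the 1270 gained sites on the 12 chromosomes, as a percentage of the distance from the start to the last peak, with the number of sites in parentheses. Black lines are sites of 2000 bp or wider (139 sites), red lines narrower ones, and the shaded band is the central 50%, where 88.3% of the sites of chromosome 2 lie.

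In windows of 1 Mb, 440 of 766 held a gained site, and 18 windows with 10 or more held 257 sites (20.2%). The 2 windows with the most sites, 23 each, were 19 to 20 Mb on chromosome 2 and 45 to 46 Mb on chromosome 12. The first also held 19 *crel* regions on reproducible wild-type regions and no wild-type region without a *crel* peak, and the second held 33 and 3. Over the 766 windows the number of gained sites had a Spearman correlation of 0.539 with the number of *crel* regions on reproducible wild-type regions, 0.431 with those at unreproduced wild-type peaks and 0.106 with the number of wild-type regions without any *crel* peak. Windows are not independent, and they share the same 4 libraries and the amount of sequence to which reads can be placed, so these values describe the map only.

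A stricter view of the gained sites keeps those that were at least 1000 bp wide, over 5 kb from any wild-type peak and supported by *crel* peaks that touched none. This left 239 of the 1270 sites (18.8%), of which 140 (58.6%) were in the central 50% of their chromosome. The limit on distance bears on this share. Gained sites of any width were central in 49.4% at over 5 to 20 kb, 55.7% at over 20 to 100 kb and 61.0% beyond. The limits of this subset were chosen after the data had been seen.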

How the data were processed

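ChIP-seq peaks of H3K27me3 from 2 *crel* and 2 wild-type replicates were used, 4 of the 18 samples of the series. By the study's methods the authors aligned 50-nt reads with Bowtie2, used SAMtools to drop duplicates and reads under mapping quality 2, and called peaks in each replicate with HOMER. Versions and peak settings are not given in the sources used here. The deposited values are peak positions (start and end only), with neither height nor read depth, so a site missed by the caller cannot be told from one without the mark. The methods name SL3.0 and the lists carry SL2.40 names, and no coordinate was converted between builds. Input libraries and RNA-seq, whose deposited table holds the authors' comparison, were not used here.

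Intervals were intersected with bedtools 2.31.1 and summarised with Python 3.11.15, numpy 2.4.6, pandas 2.3.3 and scipy 1.17.1, and plotted with matplotlib 3.10.9. Shares have 95% Wilson intervals. The study calls the ChIP-seq replicates biological. Nothing in the labels says whether they came from separate plants or batches. Sites named are the 5 widest, the 3 farthest from and 3 nearest to a wild-type peak, 3 just outside the rule, the 3 clusters and 3 stretches with the most sites, and the chromosomes with the most and fewest sites per Mb. The sites in the first cluster, other chromosomes and the 1 Mb windows given were added after their values were seen. The members, classes and comparisons were chosen with earlier results of these data known. The interval steps were tested on 4000 simulated sites, and 5 of 5 planted quantities were recovered. Alternatives covered each list left out, the overlap required, the distance and width limits, joined sites, unplaced sequence and reproducible wild-type regions alone.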

Additional observations from a re-analysis of the deposited data

How the results depend on the processing

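No paired analysis was possible because the values are tallies that come from no test, so there was no fit to which a block could be added. The settings were applied to the gained sites only, and the comparison classes were not recomputed under them. With 1 library left out at a time, the number of gained sites ranged from 1464 to 1930 (the highest without *crel* replicate 1), their share from 18.3 to 21.7%, the median width from 634 to 664 bp, the median distance to a wild-type peak from 5437 to 6598 bp, the central share from 46.3 to 47.8%, the share within 50 kb of another from 53.2 to 54.9%, agreement of *crel* replicate 1 peaks with replicate 2 from 69.8 to 70.2% (a wild-type list left out) and the share whose nearest wild-type peak carried a *crel* peak from 77.8 to 86.4%. The main number and share, 1270 sites and 15.8%, lie below these ranges. Leaving out a wild-type list can only add sites, and leaving out a *crel* list drops the need for a peak in both replicates. The ranges of number and share are therefore not a spread around the main values. Requiring the *crel* peaks to cover at least 50% of each other gave 730 sites (11.6%), a median width of 772.5 bp, a median distance of 8298.5 bp, 48.4% central, 31.9% within 50 kb and 80.5% with a carried neighbour. With neither *crel* peak touching a wild-type peak the values were 12.9%, 654.5 bp, 8144.5 bp, 48.7% central and 46.9% within 50 kb. With no wild-type peak within 1000 bp they were 13.8%, 655 bp, 7053 bp and 49.0% central. For sites of at least 500 bp they were 12.3%, 853 bp, 48.7% central and 48.2% within 50 kb. Where only reproducible wild-type regions excluded, they were 22.4%, 709.5 bp, 7091.5 bp and 57.5% within 50 kb. Joining sites up to 1000 bp apart gave 47.0% within 50 kb. Replicate 2 peaks were found in replicate 1 in 54.2%. Counting only *crel* regions of both replicates as carried gave 81.1%. Joined sites have no share of regions, and unplaced sequence has no central share.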
